A study of Mus musculus with 4 samples.

Results

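The 150 spots described here carried the highest signal for 5 genes of motile cilia in spatial RNA sequencing of embryonic mouse heads. They were chosen from 5495 spots that lay over tissue and held at least 5000 unique molecular identifiers (UMIs, one for each captured molecule). For each spot a score was taken as the mean over Foxj1, Rsph1, Ccdc153, Tmem212 and Tekt1 of log2(1 + 10000 × UMI / spot total), and the 150 highest scores over all sections made the set. The heads were wild-type C57BL/6J embryos with no transgene or treatment, at E14.5 and E15.5 (embryonic days 14.5 and 15.5), and coronal sections at the middle of the palate were fixed in formalin and embedded in paraffin. Each stage had 1 capture area with 1 section (replicate 1) and 1 capture area with 3 sections (replicates 2,3,4), and each area was a single library, so each stage had 2 areas. The labels number the sections as replicates but do not tie them to embryos, so the p-values below measure only the spread between these areas.

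Motile cilia stand in large numbers on the cells of the respiratory lining, where they move mucus, and on the choroid plexus and ependyma of the brain, where they move cerebrospinal fluid. A cell on this path leaves the cycle, is switched by the coiled-coil regulators Gmnc and Mcidas, and makes many centrioles on scaffolds called deuterosomes, which are built around Deup1. Foxj1 and the RFX factors then turn on the genes of the axoneme, the 9-plus-2 bundle of microtubules whose dynein arms bend the cilium. A spot is wider than a cell and can hold several cells of different kinds, so its values are those of a small region of tissue.

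The promoters of 4 of these genes are given first, because RFX factors bind a short element in the promoters of many cilia genes. Levels below were not compared by whether a promoter holds it. Tekt1 and Tmem212 are score genes, for a filament protein inside axonemal microtubules and a small membrane protein. Lrrc23 belongs to the radial spoke, and Ccno is needed to amplify centrioles. Each run holds the 250 bases before a RefSeq transcription start on GRCm38.p6, written 5′ to 3′ in the direction of the gene, and capitals mark the RFX site GTTGCC or its reverse complement GGCAAC.

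Tekt1, chr11:72361883-72362132, minus strand: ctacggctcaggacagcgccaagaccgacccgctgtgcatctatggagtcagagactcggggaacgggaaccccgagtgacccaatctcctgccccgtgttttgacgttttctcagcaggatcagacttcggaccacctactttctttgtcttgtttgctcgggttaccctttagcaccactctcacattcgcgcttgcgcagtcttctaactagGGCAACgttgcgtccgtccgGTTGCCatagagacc
Lrrc23, chr6:124779728-124779977, minus strand: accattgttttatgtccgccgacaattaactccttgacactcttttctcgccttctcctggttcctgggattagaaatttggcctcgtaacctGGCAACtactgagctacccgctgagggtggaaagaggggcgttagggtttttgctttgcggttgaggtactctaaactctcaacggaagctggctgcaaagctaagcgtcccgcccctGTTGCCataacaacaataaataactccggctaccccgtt
Ccno, chr13:112987552-112987801, plus strand: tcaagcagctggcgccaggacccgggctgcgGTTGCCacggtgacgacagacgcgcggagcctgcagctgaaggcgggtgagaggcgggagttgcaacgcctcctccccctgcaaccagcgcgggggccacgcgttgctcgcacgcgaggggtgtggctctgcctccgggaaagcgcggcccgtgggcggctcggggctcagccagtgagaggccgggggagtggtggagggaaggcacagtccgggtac
Tmem212, chr3:27896369-27896618, minus strand: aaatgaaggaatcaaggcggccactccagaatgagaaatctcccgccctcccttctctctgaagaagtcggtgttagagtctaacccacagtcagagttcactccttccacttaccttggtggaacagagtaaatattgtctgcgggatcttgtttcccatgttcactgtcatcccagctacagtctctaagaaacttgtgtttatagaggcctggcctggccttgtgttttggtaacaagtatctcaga

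In the printed Tekt1 window such sites lay at −35 to −30 on the opposite strand and at −15 to −10 on the strand of the gene, counted back from the start. The window of another RefSeq start of Tekt1, chr11:72361297-72361546, held none and is not printed. In Lrrc23 they lay at −157 to −152 (opposite strand) and −39 to −34 (same strand), and in Ccno at −219 to −214 (same strand). The Tmem212 window held none. Windows of 300 bases, from 250 before to 50 after the start, were then searched on both strands for 27025 genes with 32851 promoters. The RFX site was present for 58 of the 126 genes with a promoter in the table (46%) out of 168 symbols in the 7 lists of ciliary genes used below, and for 14.1% of all genes in the table. The share was 80% for dynein arm assembly factors (8 of 10), 54.5% for regulators (6 of 11), 52.6% for radial spokes and central pair (10 of 19) and 27.8% for dynein arm subunits (5 of 18). The X-box, a pair of facing RFX sites with a short spacer and some free bases, can itself hold GTTGCC, and it was found for 5 of the 126 genes (3.97%) and 0.529% of all genes. Those were Bbs7, Ccdc151, Cfap298, Dnaaf6 and Iqca. The forkhead letters GTAAACA were found for 3.17% of the ciliary genes and 4.05% of all genes. These matches describe sequence only.

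Members were unevenly spread over the sections. They made up 8 of 622 qualifying spots (1.29%, exact 95% binomial interval 0.557 to 2.52) in E14.5 replicate 1, 76 of 1949 (3.90%, 3.08 to 4.86) in E14.5 replicates 2,3,4, 15 of 984 (1.52%, 0.856 to 2.50) in E15.5 replicate 1 and 51 of 1940 (2.63%, 1.96 to 3.44) in E15.5 replicates 2,3,4. The intervals cover counting error only. Sections within an area were told apart by spot position, not by the labels, and touching ones were split by clustering of positions. Within the 3-section areas the share ran from 1.76% to 7.67% between E14.5 sections and from 1.54% to 5.06% between E15.5 sections, so sections of 1 stage differed more than the stages did. The section at 7.67% was shallow (median 21065 UMIs per spot, against 70169 and 59467). The section at 5.06% had 43559, against 55553 and 39008. Depth and section were not separated. Averaged over the 2 areas of a stage, members made up 2.59% of E14.5 spots and 2.08% of E15.5 spots (−0.516 percentage points for E15.5 minus E14.5), with p = 1 by a two-sided exact permutation test of the 4 areas, which cannot give less than 0.333. The spread over areas moved with depth. When each spot was first thinned to 5000 UMIs, the 150 highest scores comprised 45 spots of E14.5 replicate 1 (7.23% of its spots), 54, 12 and 39 in the other areas in the same order, of which 6, 34, 7 and 25 were also members by the unthinned score.

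The member spots of E14.5 replicate 1 stood apart and limit every stage comparison below. Its 8 members had a median of 7983.5 UMIs, against 54622.5, 67274 and 52944 in the other areas, and 7 of the 8 were chosen on fewer than 5 UMIs of the score genes. Their summed library was 79783 UMIs, against 4299121, 1089261 and 2572484 for the members of E14.5 replicates 2,3,4, E15.5 replicate 1 and E15.5 replicates 2,3,4. The score of the last spot inside the set was 0.3848 and that of the first outside was 0.3807, with 0.3862 and 0.3779 next to them, and the highest was 2.606, so the edge of the set fell in a continuous run of scores.

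Most of the chosen spots lay in patches. Of the 150, 127 touched another member on the hexagonal array (84.7%), and they formed 35 groups of which the largest held 26 spots, in E15.5 section C. The 15 members of E15.5 replicate 1 were a single group. In E14.5 replicate 1 only 2 of 8 members touched. To see which tissue the patches lay in, each member was given the context whose gene list stood highest there against all qualifying spots. The context was epithelial (adhesion genes and simple keratins) for 115 members, choroid plexus for 22, olfactory epithelium for 12 and neural progenitors for 1. Every member had to take a name from these tissues, with none for other tissues, and the names were not counted in other spots.

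**Figure D1:**
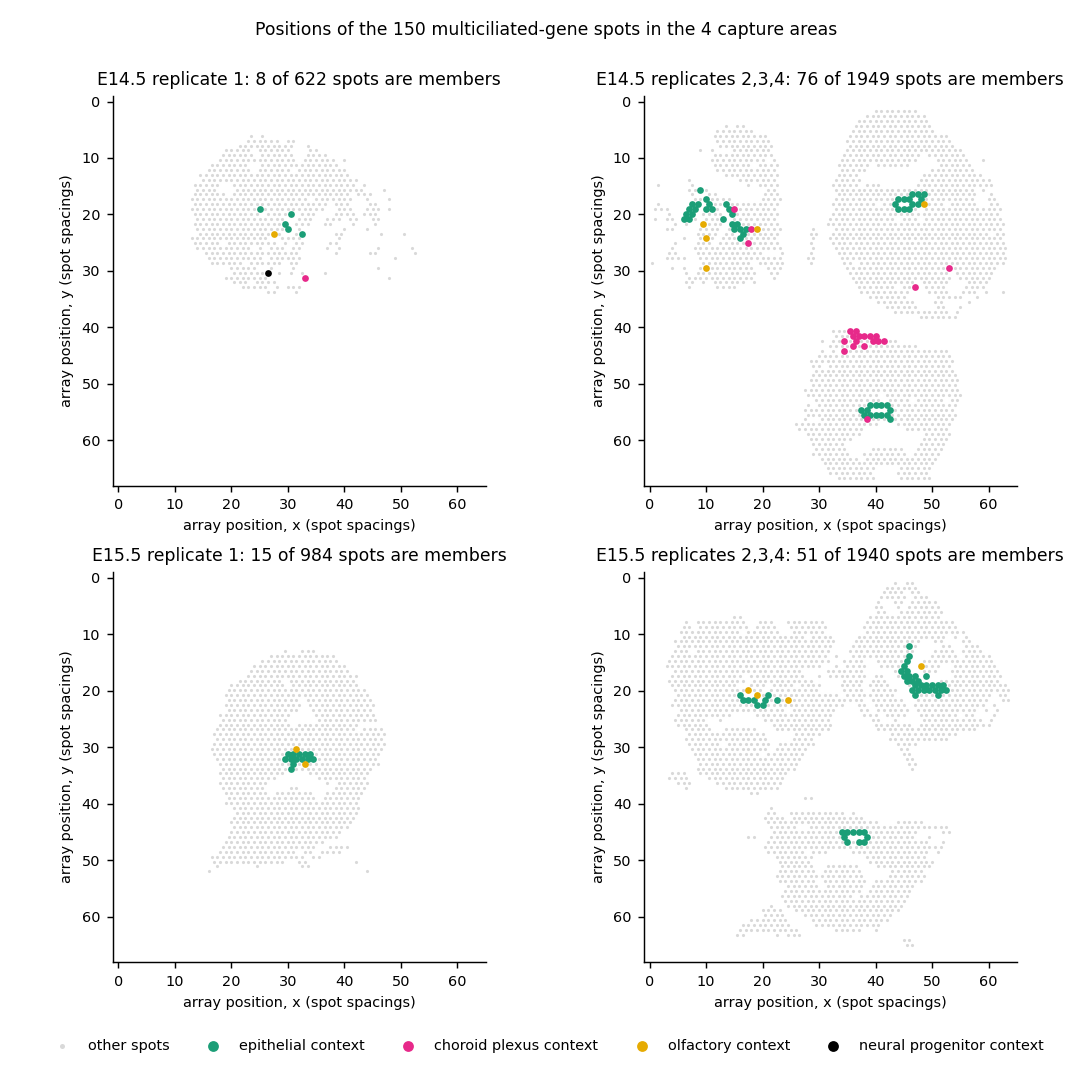
Positions of all qualifying spots on the array, in spot spacings, for the 4 capture areas, with members coloured by context and other spots in grey. Members lay mostly in patches, except for the 8 scattered members of E14.5 replicate 1, and in the area E14.5 replicates 2,3,4 a further patch of 12 choroid-context spots lay at the edge of a section.

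Most members, but not all, were given the epithelial context. At E15.5 none of 66 members had a choroid plexus context, whereas in E14.5 replicates 2,3,4 21 of 76 did. Transthyretin (Ttr), the thyroid hormone carrier that defines choroid plexus epithelium, took at least 1% of the UMIs in 17 members, all in that area, and up to 11.6% of a spot. Outside the set, Ttr reached 4.83% of the UMIs of a spot in E14.5 replicates 2,3,4 and 2.78% in E15.5 replicates 2,3,4. The context counts are of members only and do not say whether a section held choroid plexus. Summed over members Ttr stood at 25.1, 19421, 0.918 and 13.99 CPM (UMIs of a gene scaled to a library total of 1000000) in E14.5 replicate 1, E14.5 replicates 2,3,4, E15.5 replicate 1 and E15.5 replicates 2,3,4. Otx2, a further choroid plexus regulator, was at 0 UMIs in the members of every area. Results that rest on the choroid-context spots are given with and without them, and the set is called the multiciliated-gene spots.

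Because the score chose the members, the comparison of members with all other spots was a description with no test. CPM in members plus 1 over CPM in the other spots plus 1 was taken in each area, and a gene was called higher or lower where it passed 2-fold in every area. Of 14620 genes with at least 100 UMIs, 198 were higher (1.35%) and 258 lower (1.76%). In the 3 areas other than the shallow E14.5 replicate 1 the counts were 421 (2.88%) and 408 (2.79%). In spots that hold several cells, fewer cells of a type and less RNA per cell cannot be told apart. The median over all genes was near 0, at −0.00026 on the log2 scale.

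The score genes themselves were 13.3-fold to 21.8-fold higher by the median over areas, as the rule ensured. Foxj1 (ENSMUSG00000034227, chr11:116330704-116335399), the forkhead factor of motile cilia, stood at 37.6, 57.2, 91.8 and 93.7 CPM in members, in the order of areas used above, and at 2.38 to 3.62 CPM in other spots. Ccdc153 (ENSMUSG00000070306) was the most confined of the 5, with 57.0% of its UMIs in members, which held 2.88% of all UMIs. Tekt1 was the least confined, with 27.0% there.

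The early switch of the programme was marked by a cluster of neighbouring genes. Mcidas, the regulator that commits a cell to many cilia, stood at 12.5, 33.0, 37.6 and 67.3 CPM in members and 0.838 to 1.71 in other spots, and 50.6% of its UMIs lay in members. Ccno, a cyclin-like protein needed to amplify centrioles, stood at 25.1, 19.5, 46.8 and 33.4 CPM, with 44.2% in members. Cdc20b, which takes part in releasing new centrioles from deuterosomes, stood at 0, 86.8, 89.1 and 133 CPM in members and 1.19 to 4.63 in other spots, with 50.1% in members. The 3 genes lie within 103.4 kb of chromosome 13 on GRCm38 (GENCODE M21), Ccno at 112987802-112990777, Mcidas at 112993845-113000394 and Cdc20b at 113035111-113091195, all on the plus strand. Gpx8, an endoplasmic reticulum peroxidase encoded on the opposite strand inside the span of Cdc20b (113042753-113046410), had 4.07% of its UMIs in members and a median log2 ratio of 0.65. The upstream neighbours Dhx29 and Mtrex had ratios of 0.22 and 0.06, so the high levels did not extend to every gene around the 3.

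Deup1, the scaffold of the deuterosome (chr9:15559864-15627933, minus strand), was the gene with the largest ratio outside the score. It stood at 87.7, 178, 156 and 168 CPM in members against 3.14, 5.33, 2.69 and 5.33 in other spots, a median of 27.4-fold. No area overlapped, and 52.6% of all Deup1 UMIs lay in members. At least 1 UMI of Deup1 was found in 135 of 150 members (90%) and in 9.55% of 4533 spots at least 4 steps from any member, at median depths of 54234 and 49110 UMIs. Most other genes of centriole amplification are used by every dividing cell, and of the 14 tested only Deup1 was higher in every area and 3 in the 3 deeper areas (median log2 ratio 0.79). Plk4, the kinase that starts centriole duplication, stood at 62.7, 9.54, 19.3 and 27.6 CPM in members and at 5.86 to 15.3 in other spots.

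The other regulators were divided as well. Of 13 tested, 2 were higher in every area and 7 in the 3 deeper areas. Myb, a factor of progenitors that also acts early in multiciliated cells, stood at 100, 102, 144 and 161 CPM against 55.5, 47.1, 55.6 and 36.2. Gmnc, which acts above Mcidas, stood at 0, 20.004, 5.51 and 8.94 CPM, and Trp73, a p53-family factor needed for multiciliated cells, at 12.5, 67.2, 47.7 and 58.7 CPM, with median ratios of 2.31 and 1.29 on the log2 scale. E2f4 and Tfdp1, which partner Mcidas and are also general cell cycle factors, had ratios of 0.11 and −0.10 and were not set apart in members.

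Genes of the axoneme had the highest median ratios among the 7 ciliary lists. Of 16 dynein arm subunits tested, 3 were higher in every area, 14 in the 3 deeper areas, and all 16 had a median ratio above 0 (median 2.91). Dynlrb2, a dynein light chain, stood at 50.1, 188, 138 and 170 CPM against 2.86 to 8.52 in other spots, and Dnali1, an inner arm light chain, at 12.5, 37.5, 56.9 and 47.4 CPM against 0.489 to 1.46. The outer arm heavy chain Dnah5 stood at 0, 22.8, 27.5 and 28.8 CPM against 1.58 to 2.49. In the small library of E14.5 replicate 1, 12.5 CPM was a single UMI, so a gene could pass or fail the call there on 1 molecule. Mcidas and Dnali1 were among those that passed on it.

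Radial spokes and the central pair, which pass the signal that times the dynein arms, gave 6 of 16 higher in every area and 14 of 16 in the deeper areas (median 2.44). Lrrc23 stood at 37.6, 220, 139 and 154 CPM against 4.47 to 11.7. Rsph4a, a spoke head protein, stood at 12.5, 20.5, 13.8 and 18.7 CPM against 0.419 to 1.57. Among docking, ruler, nexin link and microtubule inner proteins 9 of 28 were higher in every area and 21 in the deeper areas (median 2.35). Cfap52, a microtubule inner protein, stood at 37.6, 82.8, 79.0 and 82.8 CPM against 2.59 to 4.53, and Cfap45, of the same class, at 12.5, 126, 81.7 and 125 CPM.

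Dynein arms are preassembled in the cytoplasm, and of 11 assembly factors tested 1 was higher in every area and 5 in the deeper areas (median 1.04). That one was Zmynd10, at 25.1, 33.5, 58.8 and 50.9 CPM against 2.31 to 2.86. Cfap298, an assembly factor whose promoter holds an X-box, stood at 62.7, 212, 151 and 152 CPM against 44.2 to 70.6. Intraflagellar transport and BBSome genes, which serve the primary cilia of most cells as well, gave 0 of 31 higher in every area and 1 in the deeper areas (median 0.48). Planar cell polarity genes (0 of 14, median −0.03) and Notch pathway genes (0 of 19, median −0.25), both of which act on multiciliated tissues, gave no higher call. Of the 19 Notch genes 3 had a median ratio above 0, none was lower in every area and 1 was lower in the deeper areas. Summed, the Notch genes stood at 2068, 2042, 1705 and 1984 CPM in members against 2107, 3338.5, 3335 and 3498 in other spots.

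**Figure D2:**
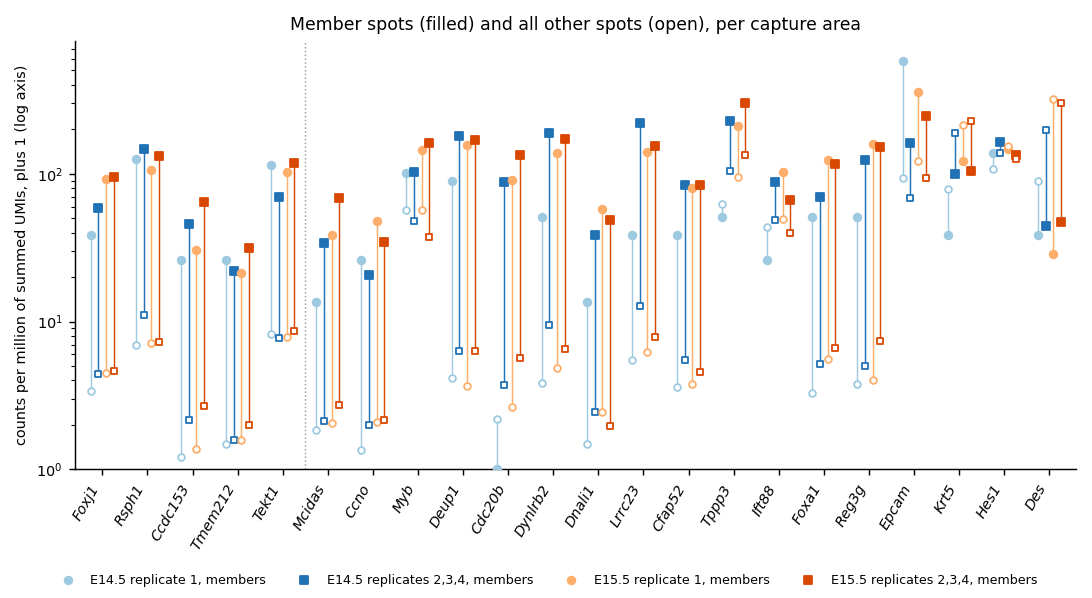
CPM plus 1 on a log axis for 22 genes, with a filled symbol for the members and an open symbol for all other spots of each capture area, joined by a line; the 5 score genes are left of the dotted line. Deup1, Dynlrb2, Lrrc23 and Cfap52 stood above the other spots in all 4 areas, Cdc20b in 3, whereas Krt5 and Des stood lower.

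Genes of the lining in which multiciliated cells sit were also higher. Of 23 genes of epithelial adhesion and simple keratins, 12 were higher in every area (median 1.43). Epcam, an adhesion protein of simple epithelia, stood at 577, 162, 354 and 245 CPM against 92.4, 67.2, 120 and 93.3, and Krt8, a keratin of the same tissues, at 125, 106, 112 and 111 CPM (median log2 ratio 2.89). Foxa1, a forkhead factor of the airway lining, stood at 50.1, 69.1, 123 and 116 CPM against 2.31 to 5.64. Genes of airway secretory and gland cells gave 4 of 13 higher in every area and 7 in the deeper areas (median 1.62). Reg3g, a secreted antibacterial lectin, stood at 50.1, 123, 159 and 151 CPM against 2.79 to 6.41, and Cyp2f2, a monooxygenase of club cells, at 87.7, 94.7, 226 and 247 CPM against 3.70 to 26.8. Few basal cell genes were higher (1 of 13, median 0.11), and Krt5, the keratin of basal cells, stood at 37.6, 99.1, 120 and 104 CPM with a median log2 ratio of −0.97.

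The 10 lowest genes by the fixed rule were the lens crystallins Crybb1, Crybb3 and Cryba4 and the lens filament gene Bfsp1, the muscle genes Tnnt2, Actn2 and Des, the pharyngeal arch factor Hand2, the neuronal Arpp21 and the epidermal Krtdap. In E14.5 replicate 1 the crystallins, Bfsp1 and Hand2 stood at 0 CPM in members against 1.75 to 8.94 CPM in other spots. All these values lie below the 12.5 CPM of 1 UMI there, so that area added little to these lower calls. Des, the muscle intermediate filament, had a log2 ratio of −2.42. All 12 skeletal muscle genes lay below 0 (median −2.72), with 3 lower in every area and 11 in the deeper areas, and stratified epidermis gave 4 and 6 of 12 lower (median −1.76). Cartilage genes went the other way, with 8 of 15 higher in every area (median 1.40), Col2a1, the main collagen of cartilage, at 5314, 4923, 5129 and 7382 CPM. Bone genes gave 0 of 13 in either direction (median −0.35). Endothelial (median −0.09), macrophage (−0.03) and S phase and mitosis genes (0.07) gave no call in either direction.

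The levels were then followed outward from the members. In E15.5 replicates 2,3,4 the summed dynein arm subunits went from 477 CPM in the 51 members to 119, 58.8 and 50.4 CPM at 1, 2 and 3 spot steps and to 31.7 CPM in the 1656 spots at 4 or more steps. The values were 495, 182, 89.3, 63.2 and 37.5 CPM in E14.5 replicates 2,3,4, 409, 125, 74.8, 47.6 and 26.3 CPM in E15.5 replicate 1, and 87.7, 63.7, 63.3, 41.3 and 23.3 CPM in E14.5 replicate 1. The order held in all 4 areas, with the shallow area the flattest. Deup1 in E15.5 replicates 2,3,4 went from 168 to 39.2, 15.8, 8.71 and 2.87 CPM.

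Cartilage genes were highest around the patches at E15.5. Its summed list in E15.5 replicates 2,3,4 stood at 14978 CPM in members, 23282 and 23221 at 1 and 2 steps, 14099 at 3 steps and 3861 further away, and in E15.5 replicate 1 at 8617, 12104, 13725, 11053 and 2564 CPM. In both areas the highest level was therefore outside the members. Muscle genes were higher with distance in E15.5 replicates 2,3,4, from 818 CPM in members to 1027, 1289, 2658 and 6833 CPM. Spots next to each other share tissue and part of the rule, so these profiles were described without a test.

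**Figure D3:**
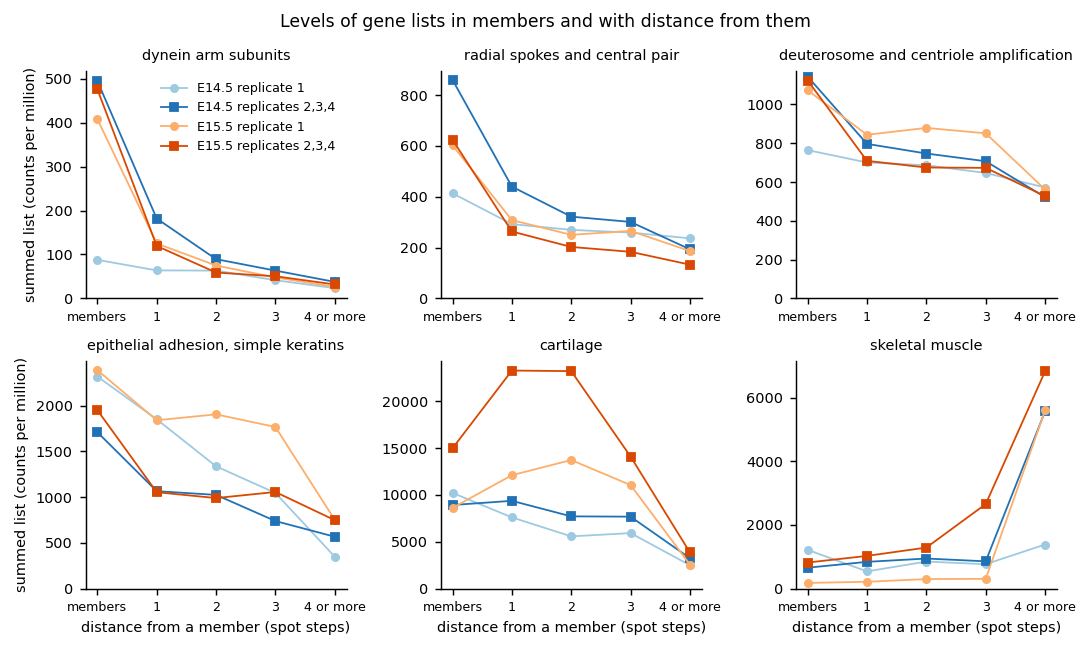
Summed CPM of 6 gene lists in members and in spots 1, 2, 3 and 4 or more array steps from the nearest member, with a line for each capture area. Dynein arm subunits, radial spokes and deuterosome genes were highest in members, cartilage genes peaked at 1 or 2 steps in the E15.5 areas, and muscle genes were highest far away.

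The genes whose level was most like the score among the members were then ranked. Over the 150 spots Spearman's correlation with the score was 0.59 for Deup1, 0.58 for 1700016K19Rik and 0.58 for Nudc, a partner of the dynein motor. It was 0.56 for Cav2 and Cdc20b, 0.54 for Tppp3, a tubulin polymerizing protein, 0.53 for Cfap206, 0.52 for Cfap126 and Myb and 0.51 for Tagln2. These were the 10 highest of 9974 genes with at least 100 UMIs in members, and 6 of them are on the ciliary lists (Deup1, Cdc20b, Tppp3, Cfap206, Cfap126 and Myb). Those lists hold 168 symbols in all. The members were chosen by the same score, so the ranking is a description only. The points share 4 libraries and differ in depth, and the order differed by area. Deup1 had 0.67 in E14.5 replicates 2,3,4 and 0.61 in E15.5 replicates 2,3,4, and Nudc 0.52 and 0.71. The score itself had a Spearman correlation of 0.11 with the UMIs of the spot.

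Choroid-context and epithelial-context members were compared within 1 area. In the area E14.5 replicates 2,3,4 the 21 choroid-context spots held 55220 CPM of Ttr and the 50 epithelial-context spots 123.5 CPM. The 3 choroid-context spots of section A reached only 91.8 CPM of Ttr, so the name rests on 18 spots of sections B and C. Foxj1 was close in the 2 contexts, at 56.4 and 59.5 CPM, and so were Dynlrb2 (202 and 188) and Rsph1 (178 and 136). Deup1 stood at 148 and 202 CPM. With a single area there is no replicate, and the values were not tested.

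Some ciliary genes differed between the 2 contexts. Of 113 genes in the ciliary lists with at least 50 UMIs, 18 were at least 2-fold higher and 10 at least 2-fold lower in the choroid context (median log2 ratio 0.25). Radial spoke and central pair genes gave 6 of 16 higher and 0 lower. The share of all genes past 2-fold was not taken, so these counts do not set ciliary genes apart from other genes. Among the higher genes were Rsph10b (71.7 against 16.7 CPM), Gmnc (40.5 against 9.09), the outer arm heavy chain Dnah9 (37.2 against 9.47), Rfx3, an RFX factor (154 against 44.3), and Spag6l, a central pair protein (74.4 against 21.2). Each of these 5 was above the epithelial value in sections B and C, and Rsph10b, Gmnc, Dnah9 and Rfx3 were at 0 in the 3 spots of section A. Among the lower genes were the score gene Ccdc153 (5.31 against 67.4 CPM, 8 UMIs), Foxn4, a forkhead factor of multiciliated cells (1.99 against 26.5, 3 UMIs), the inner arm heavy chain Dnah10 (3.98 against 20.1), Ccno (7.30 against 27.6) and Myb (47.1 against 137). Ccdc153, Foxn4, Ccno and Myb were lower in all 3 sections. Of the airway secretory and gland genes with at least 50 UMIs, 4 of 6 were at least 2-fold lower in the choroid context, and of the epithelial adhesion and simple keratin genes 15 of 18, with none higher in either list. The epithelial list and the choroid plexus list, which holds Ttr, were used to name the contexts. Their differences therefore follow from the naming and are no separate result. Foxa1 was at 1.33 against 108 CPM, Reg3g at 3.98 against 194 and Sec14l3, a lipid-binding protein of the airway, at 0 against 56.4.

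**Figure D4:**
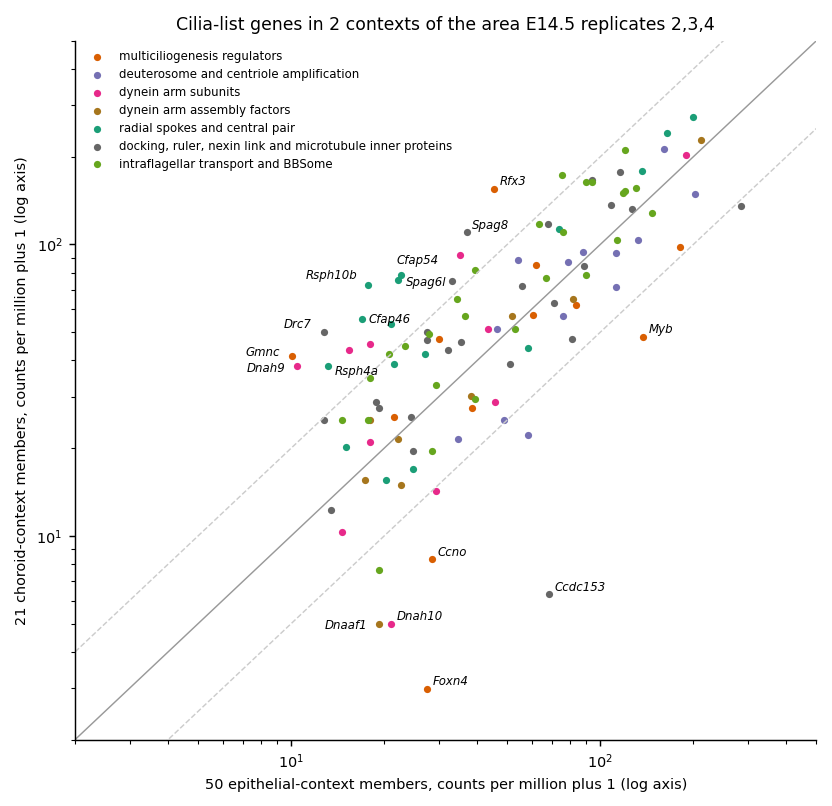
CPM plus 1, on log axes, of the ciliary-list genes in the 50 epithelial-context members (x) and the 21 choroid-context members (y) of the area E14.5 replicates 2,3,4, coloured by list, with the line of equality and 2-fold lines. Rsph10b, Gmnc, Dnah9 and Rfx3 lie above the upper 2-fold line, and Foxn4, Ccdc153, Ccno, Dnah10 and Myb below the lower one.

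Sets of spots chosen by other tissue genes shared a few members with the multiciliated set. The 150 spots highest in olfactory genes shared 6 spots with it (4% of each set), and the 150 highest in choroid plexus genes shared 17 (11.3% of each), where members made up 2.73% of all qualifying spots. Olfactory-gene spots held 2795, 2807, 3107 and 2863.5 CPM of the summed epithelial list, against 2319, 1710, 2389 and 1951 in members (areas as above). They held 1096.5, 1068.5, 1150.5 and 1132.4 CPM of the deuterosome list, against 765, 1143.5, 1073 and 1123. Dynein arm subunits (54.5, 105, 66.2 and 79.4 CPM) and airway secretory genes (334, 505, 527 and 606 CPM) were lower than in members throughout.

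The stage comparison asked whether the programme was further advanced a day later. UMIs were summed over the members of each area and the 2 areas of each stage were compared with edgeR's quasi-likelihood test, with Benjamini-Hochberg adjustment and a call at adjusted p under 0.1. Of 11674 genes tested, 6 were higher at E15.5 (0.0514%) and 48 lower (0.411%), and 830 had an unadjusted p under 0.05. Of 121 genes of the ciliary lists tested none passed with edgeR, 10 had an unadjusted p under 0.05, and none of 137 passed with DESeq2 (1 with an unadjusted p under 0.05). The count over all genes was 562 without E14.5 replicate 1, 142 without E14.5 replicates 2,3,4, 42 without E15.5 replicate 1 and 24 without E15.5 replicates 2,3,4. With 1 area left in a stage, that area was assumed to vary like those of the other stage. Without E14.5 replicate 1, 9 ciliary genes passed (Cetn2, Cfap46, Dnajb13, Drc7, Ift27, Rfx3, Spag6l, Spag8 and Wdr78), and none of them did once the choroid-context and neural-context spots were left out too. Without E14.5 replicates 2,3,4, 3 others passed (Cdc20b, Cfap45 and Tppp3).

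Without the choroid-context and neural-context spots but with all areas only 2 genes passed, both lower at E15.5, Ttr (log2 fold change −3.42, adjusted p = 0.00135) and Arhgef25, an exchange factor for small GTPases. Ttr then stood at 118.9 CPM in E14.5 replicates 2,3,4 and 13.99 CPM in E15.5 replicates 2,3,4. Measured against the other spots of the same areas by the edgeR interaction test given below, its change was −0.44 (adjusted p = 0.89). A larger fall of Ttr in the remaining members than in other spots was therefore not shown.

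No regulator or centriole gene passed the stage test. Deup1 differed by 0.02 on the log2 scale (SE 0.32, adjusted p = 0.99). Myb differed by 0.54 (SE 0.30, adjusted p = 0.73), with both E15.5 values above both E14.5 values. Mcidas differed by 0.74 (SE 0.39, adjusted p = 0.72) and Gmnc by −1.296 (SE 0.59, adjusted p = 0.68). Rfx3 differed by −1.23 (SE 0.34, adjusted p = 0.20). The score genes, given without a test, differed by 0.71 (Foxj1), −0.29 (Rsph1), 0.13 (Ccdc153), 0.24 (Tmem212) and 0.50 (Tekt1). Without the choroid-context and neural-context spots they differed by 0.69 (Foxj1), −0.10 (Rsph1), −0.37 (Ccdc153), −0.30 (Tmem212) and 0.33 (Tekt1), so Ccdc153 and Tmem212 changed sign. In the epithelial context alone Foxj1 stood at 59.5 CPM in E14.5 replicates 2,3,4 and at 98.7 and 94.7 CPM in the E15.5 areas. The 5 epithelial-context members of the shallow E14.5 replicate 1 are left out of these values, so a single area stands for E14.5.

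The balance of early to late genes was also compared. It was taken as the log2 ratio of summed UMIs of 8 early genes (Gmnc, Mcidas, Ccno, Myb, Foxn4, Deup1, Cdc20b and Plk4) over 84 axoneme genes. At E14.5 the ratio was −2.07 in replicate 1 and −2.83 in replicates 2,3,4, and at E15.5 it was −2.33 and −2.24. The first of these rested on 24 and 101 UMIs. The E15.5 values lay between the E14.5 values, and the difference of 0.164 had p = 1 by the two-sided exact permutation test (smallest possible 0.333).

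The 6 genes that rose were Cbr2, Cyp2f2, Olfm5, Ogn, Sfrp2 and Postn. Cbr2, a carbonyl reductase of the airway lining, stood at 37.6 and 42.3 CPM in the members of the E14.5 areas and at 152 and 170 CPM at E15.5, a log2 fold change of 1.89 (SE 0.32, adjusted p = 0.0040). Cyp2f2, with 87.7 and 94.7 against 226 and 247 CPM, changed by 1.301 (SE 0.31, adjusted p = 0.088). The stages did not overlap for either gene, and Cyp2f2 was the only one of 9 tested secretory genes to pass. The remaining 4 were Olfm5 (2.01, adjusted p = 0.044), an olfactomedin, Ogn (1.58, 0.038), a matrix proteoglycan, Sfrp2 (1.57, 0.015), a secreted Wnt modulator, and Postn (1.35, 0.090), a matrix protein of mesenchyme. Sfrp2 stood at 376, 321, 1105 and 940 CPM. In spots outside the set it stood at 193, 150, 273 and 261 CPM, also higher in both E15.5 areas. Leaving out E15.5 replicate 1 ended the calls of Cbr2 (adjusted p = 0.11), Cyp2f2 (1) and Sfrp2 (0.41), and leaving out E15.5 replicates 2,3,4 those of Cbr2 (0.38) and Cyp2f2 (1). Cyp2f2 was also lost without E14.5 replicates 2,3,4 (0.13) and with a term for the replicate number (0.19), which divides the areas as the Space Ranger version and the number of sections do. DESeq2 kept the call of Sfrp2 (0.0087) but not those of Cbr2 (0.61) and Cyp2f2 (1), and all 3 were lost with sections as samples (0.26 each), for the 200 highest spots and with thinned scores.

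None of these 6 passed without the choroid-context and neural-context spots. Cbr2 then changed by 1.39 (adjusted p = 0.19), Cyp2f2 by 0.79 (adjusted p = 0.999), Sfrp2 by 1.22 (adjusted p = 0.44), Olfm5 by 1.47 (adjusted p = 0.59), Ogn by 1.29 (adjusted p = 0.44) and Postn by 0.9995 (adjusted p = 0.999). When E14.5 replicate 1 was left out as well, which assumes that the lone E14.5 area varied like the E15.5 areas, Cbr2 (1.31, adjusted p = 0.0062), Olfm5 (1.32, 0.0049), Ogn (1.25, 0.012) and Sfrp2 (1.08, 0.033) passed and Cyp2f2 (0.67, 0.62) and Postn (0.93, 0.20) did not. The calls for airway genes therefore turned on which spots and areas were kept.

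Of the 48 genes that fell, 3 were on the choroid plexus list and 3 on the neural progenitor list. Ttr changed by −10.15 (SE 1.43, adjusted p = 0.00070), on 2 and 83495 UMIs at E14.5 and 1 and 36 at E15.5. Car14, a carbonic anhydrase of the choroid plexus and brain, changed by −4.47 with 25.1, 131, 6.43 and 4.28 CPM, and Sostdc1, a secreted antagonist of BMP and Wnt signals made in choroid plexus, by −1.83. These were the 3 of 7 tested choroid plexus genes that passed, beside 3 of 13 neural progenitor genes. The summed choroid plexus list stood at 213, 20844, 389 and 424 CPM in members, with Otx2 at 0 throughout and Folr1 and Kcne2 at 0 in both E15.5 areas and in E14.5 replicate 1. The summed neural progenitor list stood at 802, 934, 417 and 356 CPM. Lhx2, a LIM homeodomain factor, changed by −1.40 (adjusted p = 0.042), a call lost without E15.5 replicate 1 (adjusted p = 0.76) or without E15.5 replicates 2,3,4 (adjusted p = 1). With DESeq2 neither Ttr (0.61) nor Lhx2 (0.996) passed, nor did either with sections as samples (0.26 and 0.27). Outside the lists the largest falls were Pax8 (−6.26), Fgf17 (−6.22), Pax2 (−5.41), Nkx2-1 (−4.83), Adgrv1 (−4.16), Mlc1 (−3.91), Slco1c1 (−3.79), Slc6a15 (−3.37, and 0.98 without the choroid-context and neural-context spots), Pcp4l1 (−3.35) and Tmem108 (−3.33). Pax8 and Pax2 had 1 UMI each in the members of E14.5 replicate 1, so these 2 falls rest on the other E14.5 area. Without that area Ttr (−1.41, adjusted p = 0.72) no longer passed, and Sostdc1 (1.01) and Slc6a15 (6.73) changed sign.

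Cfap43, a gene of the cilium that is on none of the lists, was also among the 48 and is named after its values were seen. It stood at 0, 60.01, 10.1 and 11.3 CPM, a change of −2.28 (SE 0.50, adjusted p = 0.046), and at −0.64 (adjusted p = 0.999) without the choroid-context and neural-context spots. Its call was lost without E14.5 replicates 2,3,4 (6.76, adjusted p = 0.66), without E15.5 replicate 1 (adjusted p = 0.76), without E15.5 replicates 2,3,4 and with DESeq2.

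**Figure D5:**
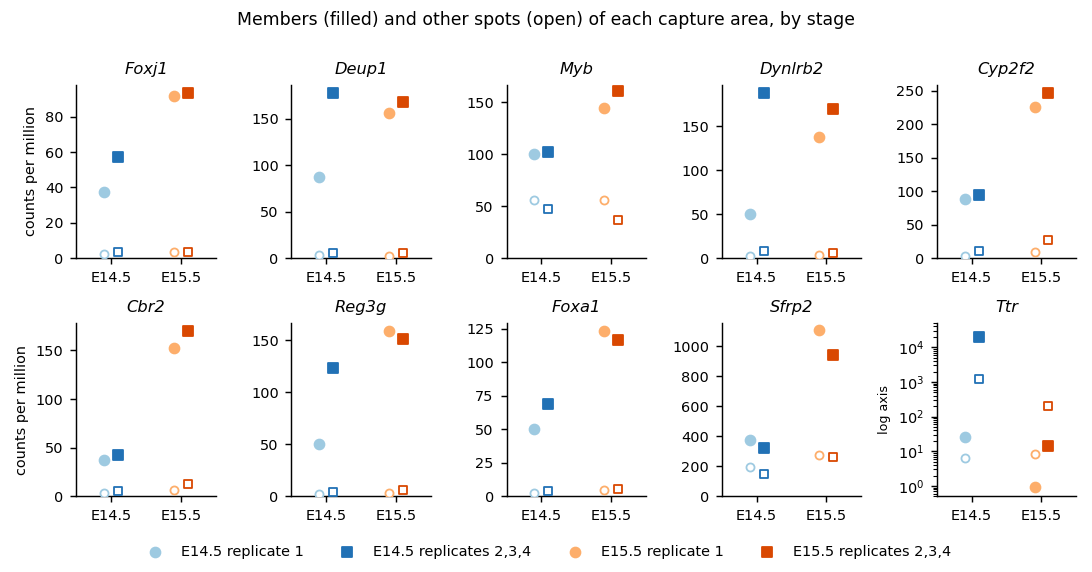
CPM in members (filled) and in all other spots (open) of each capture area by stage for 10 genes, with Ttr on a log axis. Cbr2, Cyp2f2 and Sfrp2 were higher in both E15.5 areas, Deup1 and Dynlrb2 overlapped between stages, and Ttr was high in the area E14.5 replicates 2,3,4.

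A further fit asked whether members changed between the stages by more or less than the other spots of the same areas, with each area as a block. Of 14075 genes, 37 had a more positive difference in members (0.263%) and 134 a more negative one (0.952%), and 825 had an unadjusted p under 0.05. The count of calls was 368, 206, 18 and 27 without E14.5 replicate 1, E14.5 replicates 2,3,4, E15.5 replicate 1 and E15.5 replicates 2,3,4. Myb was the only gene of the ciliary lists among the 171 calls made with all areas and members, with an interaction of 0.71 (SE 0.21, adjusted p = 0.076). Its level went from 100 and 102 to 144 and 161 CPM in members, whereas in other spots it went from 55.5 and 47.1 to 55.6 and 36.2 CPM. Without the choroid-context and neural-context spots, where Myb was low, its interaction was 0.46 (adjusted p = 0.38). Its call was also lost without E14.5 replicates 2,3,4 (1.07, adjusted p = 0.35), without E15.5 replicate 1 (1.10, adjusted p = 1) and without E15.5 replicates 2,3,4 (0.30, adjusted p = 1), as well as with a term for the replicate number (0.94, adjusted p = 0.11). Without E14.5 replicate 1, Foxn4 and Rfx3 passed along with Myb, and without E14.5 replicates 2,3,4 Rsph9, a spoke head protein, passed. In the fit with all areas Dynlrb2 had 0.58 (adjusted p = 0.37) and Foxn4 1.11 (adjusted p = 0.17).

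Cbr2 (1.04, adjusted p = 0.039) and Sfrp2 (0.89, adjusted p = 0.0056) rose more in members than elsewhere, and Cyp2f2 (0.50, adjusted p = 0.70) did not pass. Neither passed with DESeq2 (adjusted p = 1 and 0.69), with thinned scores, without either E15.5 area or without the choroid-context and neural-context spots (0.54, adjusted p = 0.59, and 0.50, adjusted p = 0.21). Cbr2 was also lost without E14.5 replicates 2,3,4 (0.91, adjusted p = 0.81) and with a term for the replicate number (0.81, adjusted p = 0.9999). Of the lists, choroid plexus gave 9 of 15 genes with a more negative difference, neural progenitors 5 of 13, stratified epidermis 5 of 12 and skeletal muscle 3 of 12. These counts were taken with the choroid-context and neural-context spots kept. A more negative difference need not be a fall in members. Summed stratified epidermis genes stood at 188, 224, 210 and 223 CPM in members and at 224, 567, 1065 and 1067 CPM in other spots. Ttr had −7.70 (adjusted p = 1.8e-41) and Clic6, an intracellular channel protein of secretory epithelia, −1.25 (adjusted p = 8.1e-06). Without the choroid-context and neural-context spots neither passed, with Ttr at −0.44 (adjusted p = 0.89) and Clic6 at 0.42 (adjusted p = 0.55). For the 200 highest spots Ttr was at −2.505 (adjusted p = 0.41), and it did not pass with thinned scores. Sftpc, a surfactant protein, had 0 UMIs in the members of both E14.5 areas and 7 and 11 in those of E15.5, where other spots held 0.058 to 0.14 CPM in all areas (adjusted p = 0.0056). With so few molecules the fitted fold is no bound, and the call was lost without either E14.5 area (adjusted p = 0.27 and 0.87) and with a term for the replicate number (adjusted p = 0.11). Without the choroid-context and neural-context spots 223 genes passed in all, of which 168 were more positive in members and 48 were shared with the first fit. Among them were 3 ciliary genes, the heavy chains Dnah1 and Dnah6 and the spoke head gene Rsph4a, named after their values were seen.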

How the data were processed

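Spatial RNA was measured on Visium slides for fixed, paraffin-embedded tissue. For every spot the authors deposited unnormalized UMI counts of all genes together with its array position. File headers name Space Ranger 1.3.1 (both replicate 1 areas) and 2.0.0 (both 3-section areas). The processing notes name mm10, and the probe set and annotation are not given in the sources used here. All areas list 19465 genes, handled by Ensembl identifier because 22 share a symbol.

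Of 6357 tissue spots, 862 held under 5000 UMIs and were left out, as were 19 barcodes off tissue. Qualifying spots summed to 14391936, 108435599, 67329040 and 89089298 UMIs per area in the order E14.5 replicate 1, E14.5 replicates 2,3,4, E15.5 replicate 1 and E15.5 replicates 2,3,4. Areas share 541 to 1397 barcodes per pair, since barcodes mark array positions. No doublet caller was run on spots.

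The members and gene lists were chosen with earlier results of these data known. Stage tests used edgeR 4.0.16 in R 4.3.3 on UMIs summed per area, with TMM scaling, filterByExpr, the quasi-likelihood test and Benjamini-Hochberg adjustment at 0.1 against a fold change of 0 on the log2 scale. The study's methods name that level for a test with a minimum fold change, which was an alternative here. The tests were also run on simulated counts. These were drawn from a common mean profile for all areas, so they did not copy the differences in tissue between areas. DESeq2 1.42.0, other filters, other member sets and leaving out each area were alternatives. Ratios used a pseudocount of 1 CPM. Genes named outside the lists were the 15 highest and 10 lowest ratios (called genes with at least 100 member UMIs) and the 10 largest called changes in each direction, and within lists those with most member UMIs (1 gene that met this rule is not reported here), with others named where a count or context needed them. Promoters came from RefSeq (GRCm38.p6) and gene positions from GENCODE M21.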

Additional observations from a re-analysis of the deposited data

Results flagged for a closer look

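The stage difference in members differed from that in the other spots of the same areas for 171 genes by the interaction test (edgeR, adjusted p under 0.1), and the values below are log2 interactions. The list genes among them were Myb (0.71), Ttr (−7.70), Clic6 (−1.25) and Nes (−0.96). Without the choroid-context and neural-context spots these were at 0.46, −0.44, 0.42 and −0.18, and none passed. More positive in members were Sftpc (10.56), Creg2 (9.69), Fam47e (9.40), Nmbr (3.95), Olfm4 (3.43), Sptbn4 (2.33), S100a9 (2.30), Snhg11 (1.51), Sst (1.41) and Ecel1 (1.35). More negative were Htr2c (−12.21), a serotonin receptor of the choroid plexus, Arl2bp (−9.81), Fam178b (−9.58), Slco1a4 (−5.52), Fgf8 (−4.85), Mfrp (−4.45), Vwa5b1 (−4.43), Pax2 (−4.32), Fgf17 (−4.27) and Cldn2 (−4.05). Thinned scores left none of these calls (359 at unadjusted p under 0.05 with edgeR), and DESeq2 called 1 gene, Ttr. Sftpc, Creg2 and Fam47e had 0 UMIs in the members of both E14.5 areas and Htr2c in those of both E15.5 areas, so the fitted sizes of these 4 depend on the prior count and are no bound.

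Barcodes that the authors marked as off tissue also held UMIs of the 5 score genes. In E15.5 replicates 2,3,4 the 11 such barcodes held 54 of 352936 UMIs, which is 153 CPM, against 32.1 CPM in its qualifying tissue spots. Of these 11, 2 reached the score of the members with at least 5000 UMIs, 2 lay next to a member, and together they held 22 UMIs of Deup1 and 53 of Epcam. In E14.5 replicates 2,3,4 the 8 off-tissue barcodes held 4 of 209555 UMIs, which is 19.1 CPM, against 34.5 CPM in its tissue spots.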

How the results depend on the processing

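Calls of the stage comparison within members (54 genes) changed with most settings: 6 with DESeq2, 161 with no filter on low counts, 4 with at least 10 UMIs in every sum, 15 against a log2 fold change of 1, 24 to 562 when 1 area was left out, 24 for the 100 highest spots, 0 for the 200 highest (722 at unadjusted p under 0.05), 453 with at least 10000 UMIs per spot (which leaves E14.5 replicate 1 with 4 members and so out of the fit), 1 with thinned scores, 0 with 37 spots per area (378 at unadjusted p under 0.05), 3 with sections as samples, 2 without choroid-context and neural-context spots and 33 without these and E14.5 replicate 1, a setting chosen after seeing the data. The interaction count (171) was 1 with DESeq2, 1 with at least 10 UMIs in every sum, 26 against a log2 fold change of 1, 18 to 368 when 1 area was left out, 110 and 28 for 100 and 200 spots, 388 with at least 10000 UMIs, 0 with thinned scores (359 at unadjusted p under 0.05) and 1 with 37 spots per area. With a replicate block it was 67 and the count within members 37, but same-numbered areas did not deviate together (r = 0.00 over 11674 genes, 2 pairs), so this check does not show that the numbers pair the areas, although they divide them as the Space Ranger version does. Genes higher in members (198) numbered 374 past 1.5-fold and 207 to 421 when 1 area was left out, and genes lower (258) numbered 102 with a pseudocount of 5, 644 past 1.5-fold and 313 to 408. The share difference (−0.516) was 0.166 without choroid-context and neural-context spots and −1.82 to 0.790 when 1 area was left out, and the early to axoneme difference (0.164) was −0.212 to 0.540. Ranges that changed sign when 1 area was left out, by leaving out E14.5 replicates 2,3,4 except for S100a9 (E15.5 replicates 2,3,4), were Slc6a15 (−3.75 to 6.73), Sostdc1 (−2.21 to 1.01), and for the interaction Olfm4 (−0.68 to 4.05), S100a9 (−1.85 to 12.12), Htr2c (−12.62 to 0.57), Fgf8 (−10.64 to 5.18), Mfrp (−4.53 to 7.19), Vwa5b1 (−10.50 to 5.86), Cldn2 (−4.56 to 6.002) and Clic6 (−1.41 to 0.46). With the sign kept, leaving out E14.5 replicates 2,3,4 gave −0.35 for Arl2bp, 12.96 for Ecel1, 9.38 for Nmbr, 11.53 for Sptbn4 and −6.77 for Pax2 (interaction) and −2.76 for Adgrv1 and −2.18 for Pcp4l1 (within members), and leaving out E15.5 replicates 2,3,4 gave −10.11 for Slco1a4, −10.65 for Pax2 and 2.01 for Nmbr (interaction) and 0.96 for Olfm5 (within members). Without choroid-context and neural-context spots Slc6a15 was 0.98 (0.90 without E14.5 replicate 1 as well), Fgf17 0.37, Cldn2 1.37 and Clic6 0.42. With thinned scores S100a9 was −0.87 and Ecel1 −0.87. Where a single area stood for a stage it was assumed to vary like the other stage, and other causes of these changes were not tested.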

Other observations

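Tissue spots under 5000 UMIs were not eligible, but 14 of them in the 3-section area of E14.5 and 11 in its replicate 1 reached the score of the members. The limits of these data are few areas, 8 shallow members in E14.5 replicate 1, and spots that mix cells, so a gene's level cannot be assigned to a cell. In that area 3 UMIs of 79783 were the floor of detection in the summed members. Probe counts depend on the probe set, which was not examined, and levels of different genes were therefore not ranked against each other.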
